A study of Drosophila melanogaster with 8 samples.

Results

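The genes ft, ds, fj, ex and Diap1 control tissue growth through the Fat and Hippo pathways of Drosophila melanogaster, and the open chromatin around them was described across 4 groups of FAIRE-seq libraries. Regions were taken for these genes where the region centre lay in the RefSeq gene body (Release 6, the dm6 build) or within 10 kb of it. This gave 59 of the 13008 regions of the authors' comparison tables: 6 at ft (gene body chr2L:4198404-4221796, Dmel_CG3352), 21 at ds (chr2L:640013-714983, Dmel_CG17941), 11 at fj (chr2R:18232761-18236311, Dmel_CG10917), 11 at ex (chr2L:431227-448701, Dmel_CG4114) and 10 at Diap1 (chr3L:16038410-16051034, Dmel_CG12284). Of the 59 regions, 30 had their centre inside the gene body, and 38 had the named gene as the nearest annotated gene. The others lay closer to a neighbouring gene, so a region in a window is not thereby a region of that gene.

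Fat, encoded by ft, and Dachsous, encoded by ds, are very large cadherins that bind each other across the boundary between neighbouring cells, and the product of fj is a Golgi kinase that phosphorylates their extracellular domains and so tunes the binding. Graded Dachsous and fj levels across an imaginal disc orient cells in the plane of the tissue and act on growth. Fat signals to the Hippo kinase cascade, which restrains the coactivator Yorkie. Expanded, encoded by ex, is a membrane-associated protein that activates the cascade and whose gene is also switched on by Yorkie, and Diap1, an inhibitor of caspases, is a classical Yorkie target that keeps disc cells alive. Imaginal discs are the diploid, dividing larval precursors of adult appendages, whereas salivary gland cells do not divide and grow by copying their DNA repeatedly.

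The libraries came from female wandering larvae of the third instar raised in the same way and staged at -6 h relative to puparium formation (APF), with at least 40 dissected tissues per library and 2 libraries per group. In FAIRE-seq, crosslinked chromatin is sheared and extracted, and DNA poor in nucleosomes stays in the aqueous phase and is sequenced. EcR-RNAi wings were yw/yw and carried the driver Vg-GAL4 with UAS-Flp, the flip-out cassette Tub>>CD2>>GAL4, the marker UAS-GFP, and the hairpin UAS-EcR-RNAi[104] against the ecdysone receptor gene EcR. Flp made under the vg driver removes the CD2 stop, so that GAL4 and with it the hairpin stay on in those cells and their descendants. The hairpin is therefore not labelled as acting in every cell of the tissue, and FAIRE gives no measure of how far EcR itself was reduced. WT wing, WT leg and WT salivary gland all carried the genotype +/+; +/+; +/+ per the labels. The gland peak names carry another prefix, which the labels do not explain, and a size tag that wing and leg lack. Whether the gland libraries differed in stock or in fragment sizes is not known. Such a difference cannot be told apart from tissue in the comparisons with gland. The EcR-RNAi group carries the driver, the cassette, GFP and the yw background as well, so none of these can be told apart from the hairpin.

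For every region the comparison tables gave the mean normalized count, the log2 fold change, its standard error (SE) and an adjusted p, all from the authors' DESeq2 fit. To be called, a region needed an adjusted p under 0.05 and at least a 2-fold difference, which is 1 on the log2 scale. The tables hold no value per library, so the level of a region in each group was worked out from its mean normalized count and its folds, as the mean over the 4 groups, and has no spread of its own. Those levels depend on the width of a region and are compared only between groups, at the same region or summed over the same regions. The labels do not say whether the paired libraries came from separate crosses or dissections, so the adjusted p reflects library-to-library spread that may be technical only. Marker genes were checked against the tissue labels. In wing against leg, 8 of 29 regions at vg, nub and ap were called higher in wing and 1 lower. Of the 8, 7 lay at vg and 1 at nub, which also held the lower one, and ap had 0 of 5. At Sp1, btd and bab2, 0 of 23 regions were called higher and 7 lower, 5 of them at Sp1. Of all regions tested 2.04% were called higher in wing than in leg and 2.21% lower. At fkh, CrebA, sage and Sgs3, 9 of 20 regions were called lower in wing than in gland and 2 higher, both at CrebA. Of the 9, 5 lay at CrebA, 2 at fkh and 2 at sage, and the 1 region at Sgs3 was not called. Of all regions 12.7% were called lower in wing than in gland and 21.1% higher. Discs also hold other cells, and at the myoblast genes twi, Mef2 and htl 0 of 28 regions were called either way between wing and leg. At an unadjusted p under 0.05 in the authors' DESeq2 fit, 3 of these were higher in wing and 1 lower, with no share of all regions counted. At the tracheal genes trh, vvl and btl, 2 of 18 regions were called higher in wing and 1 lower, all at trh.

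The first question was where the discs differ from the salivary gland, a tissue with another growth programme. At the 5 genes, 35 of 59 regions were called higher in wing than in gland, against 21.1% of all regions tested, and 0 were called lower, against 12.7% of all regions. The 35 were 12 at ds, 9 at fj, 7 at ex, 4 at ft and 3 at Diap1. In leg against gland 29 regions were called higher, where 22.6% of all regions were, and 0 lower, where 13.3% were. Those 29 were 10 at ds, 7 at ex, 6 at fj, 3 at ft and 3 at Diap1. Below the 2-fold threshold, by the unadjusted and the adjusted p alike, 4 regions were lower in wing than in gland (2 each at ex and Diap1) and 6 were lower in leg (1 at ds, 2 at ex and 3 at Diap1). The share of all regions below the threshold was not counted, so these 4 and 6 cannot be called few or many. The median log2 fold change over the 59 regions was 1.13 for wing over gland, with 0.18 over all regions, and 0.99 for leg over gland, with 0.17 over all regions. With every fold taken relative to those medians of all regions, the regions called higher than gland numbered 26 for wing and 22 for leg, and those called lower 0 and 1. The shares of all regions called with such folds were not counted. Both comparisons use the same gland libraries. Regions at marker genes of other cells that discs hold were counted in the same way. At the myoblast genes 13 of 28 regions were called higher in wing than in gland and 3 lower, and 10 higher and 4 lower in leg. In wing 12 of the 13 lay at twi, with 1 higher and 2 lower at Mef2 and 0 higher and 1 lower at htl. In leg 9 of the 10 lay at twi, with 1 higher and 3 lower at Mef2 and 0 higher and 1 lower at htl. At the tracheal genes 9 of 18 were called higher in wing and 0 lower, and 7 higher and 0 lower in leg, shares of 50% and 38.9% beside the 59.3% and 49.2% at the 5 genes. In wing 6 of the 9 lay at trh and 3 at vvl, and in leg 5 and 2, with 0 at btl in either. The part of myoblasts and tracheal cells in the counts at the 5 genes was not tested.

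**Figure D1:**
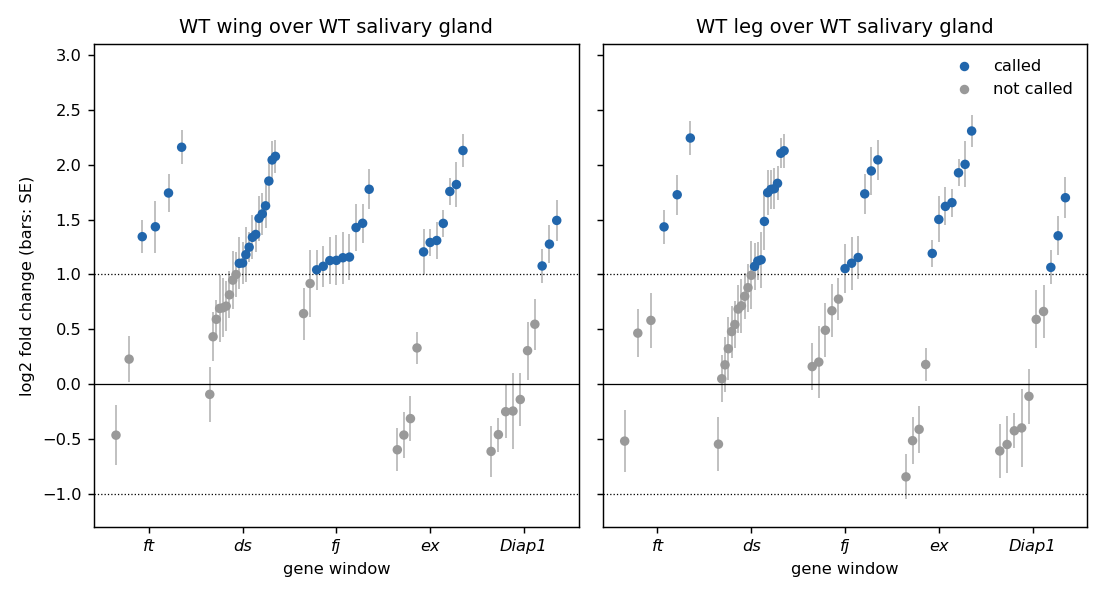
Log2 fold changes (vertical axis, bars are the SE) of WT wing over WT salivary gland and of WT leg over WT salivary gland for every region at each gene, ordered by size within a gene, from the authors' deposited tables. Blue points are called and grey points are not, and dotted lines mark the fold threshold of 1; all regions at fj lie above 0, whereas Diap1 spreads to both sides with 3 called in each panel.

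The windows differed in how far the difference from gland set them apart from their surroundings. In the flanks from 10 to 100 kb, regions had lower medians than the windows at ex, fj and ds. The median log2 fold change of wing over gland was 1.29 in the ex window and 0.47 in its flanks, 1.13 and 0.58 at fj, and 1.10 and 0.77 at ds. At ft it was 1.39 in the window and 1.77 over the 5 flank regions, and at Diap1 both values were near 0, with 0.08 in the window and -0.01 in the flanks. These differences were not tested. The outermost ds region inside the window, 9.04 kb from the gene, had a log2 fold change of wing over gland of 1.18, and the first one outside, at 16.6 kb, 1.77, so the 10 kb limit does not mark an edge of the pattern. At fj those values were 1.07 and 1.51, at ex -0.46 and -0.22, and at Diap1 0.55 and 1.22. Of the 59 regions 44 lay farther than 500 bp from any gene end, and 28 of those 44 were called higher in wing, against 27.6% of all regions so placed. Of the 15 regions closer than that, 7 were called, against 11.4%. Regions with a low count are called higher in gland more often in these tables (38.0% under the lower quartile of 70.8 normalized counts), and only 4 of the 59 regions lay there. Among regions at or above that quartile, 35 of 55 at the 5 genes were called higher in wing, against 25.7% of all, and 0 were called lower, against 4.22%. Of the 30 regions inside the gene bodies 17 were called, and of the 38 whose nearest gene is the named one, 22 were. The share of all regions inside gene bodies was not counted, and of all regions wherever placed 21.1% were called.

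The peak lists, called by the authors on merged libraries, showed the same loci tissue by tissue. The EcR-RNAi wing, WT wing, WT leg and gland lists held 99, 113, 99 and 27 peaks in the 5 windows, of 18464, 29283, 26754 and 16840 peaks in all. In the ds window EcR-RNAi wing, WT wing and WT leg had 35, 38 and 35 peaks and gland 0. In the fj window they had 20, 23 and 16, and gland again 0. In the ft gene body they had 4, 6 and 5, and all 7 gland peaks of the window lay outside it. At ex 3 of 8 gland peaks lay in the gene body and at Diap1 6 of 12. Among the 59 table regions, 56 held an EcR-RNAi wing peak, 58 a WT wing peak, 56 a WT leg peak and 9 a gland peak. None of the 35 regions called higher in wing held a gland peak, whereas 11.0% of the regions so called over the whole table did. Of the other 24 regions 9 held one, against 64.9% over the whole table. A peak list has no replicates, and the gland list differs from the others in its size tag, so the peak numbers are a description. No DNA copy number was measured, so fewer copies of a locus in the gland and less open chromatin there cannot be told apart.

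**Figure D2:**
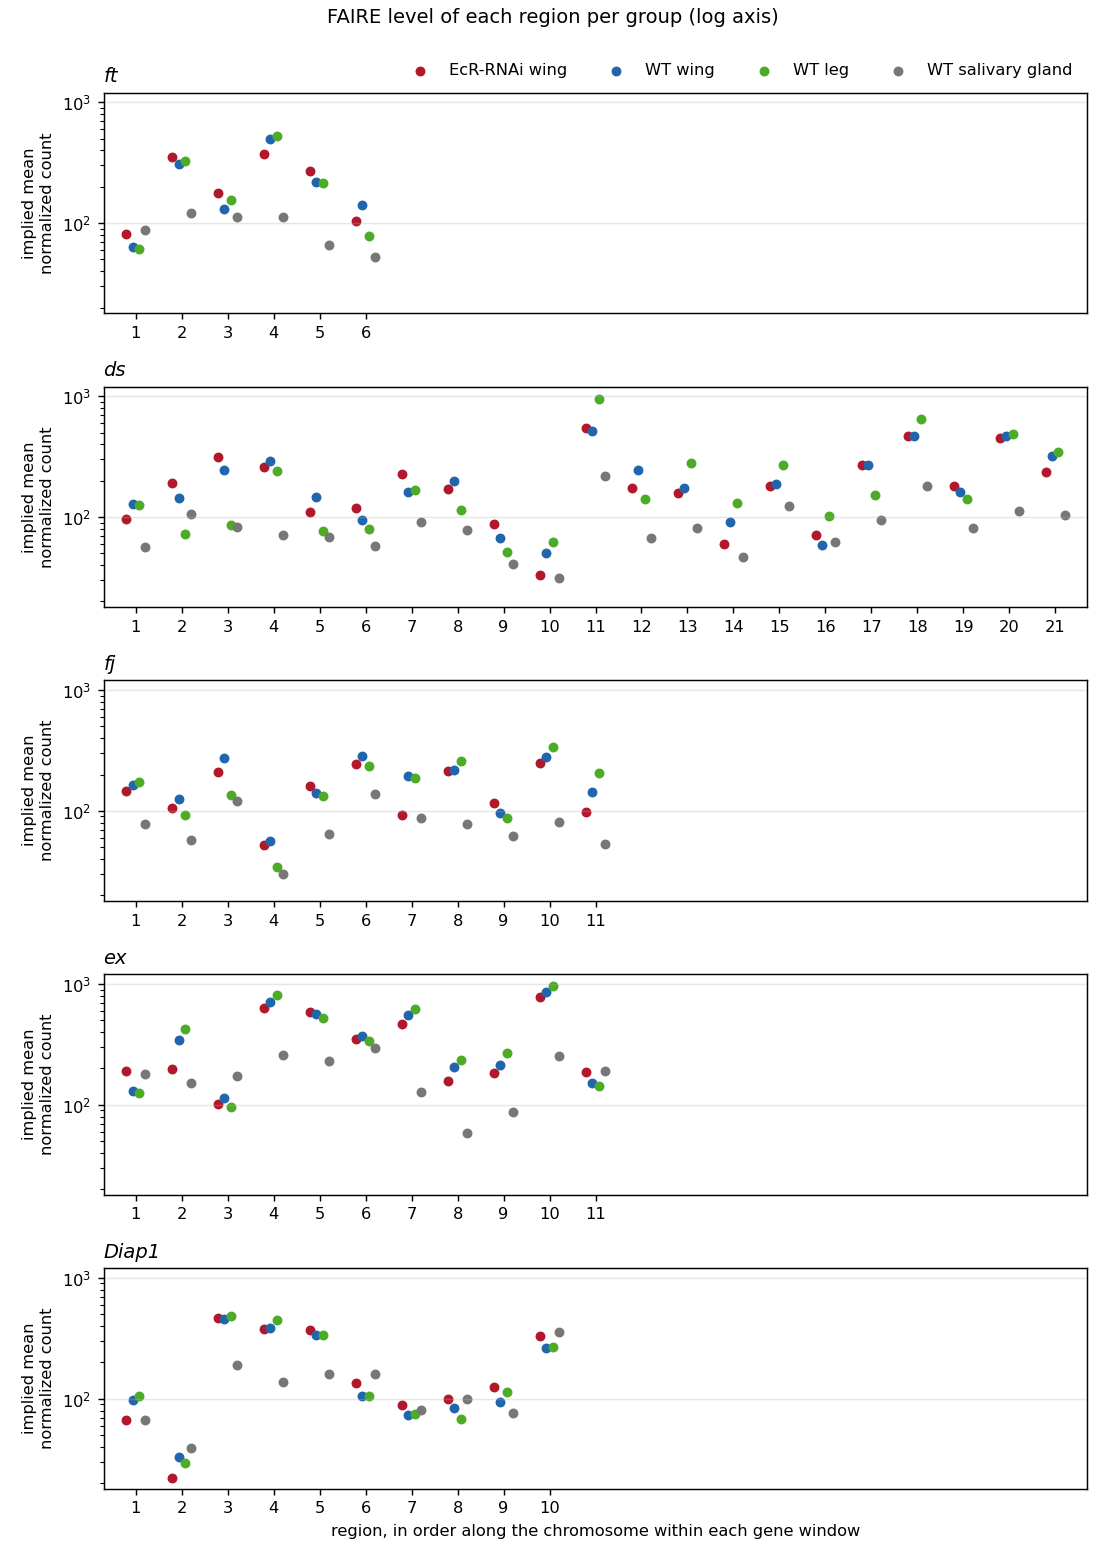
Implied level (mean normalized count, log axis) of each region in EcR-RNAi wing, WT wing, WT leg and WT salivary gland, with the regions of each gene in order along the chromosome. The gland points lie under the other groups at most regions of ds, fj and ex and at regions 2 to 6 of ft, for example at region 4 of ft (374.8, 499.5, 529.7 and 111.9). At Diap1 they do so at regions 3 to 5 and 9, and only just at region 1 (66.81, against 66.85 in EcR-RNAi wing). The gland point is the highest at regions 2, 6 and 10 of Diap1.

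The ligand gene ds, the longest of the set at 75.0 kb, had its largest mean normalized count at chr2L:668731-670485, inside the gene body 29.6 kb from the low-coordinate end. The level there was 539.7 in EcR-RNAi wing, 518.8 in WT wing, 938.8 in WT leg and 218.4 in gland. The log2 fold change in the authors' deposited tables was 1.25 (SE 0.14, adjusted p 3.01e-18) for wing over gland and 2.10 (SE 0.14, adjusted p 2.55e-51) for leg over gland. Leg stood highest and gland lowest. At the high-coordinate end of the gene, chr2L:714816-715892 had levels of 454.2, 469.2, 486.3 and 111.3 in EcR-RNAi wing, WT wing, WT leg and gland. The 3 disc groups were level and gland was lower, with 2.08 (SE 0.15, adjusted p 4.4e-40) for wing over gland and 2.13 (SE 0.15, adjusted p 4.29e-41) for leg over gland in the authors' deposited tables. The nearest gene to that region is lncRNA:CR44988, which lies at that end of ds, so the region cannot be given to ds alone. At the low-coordinate end, chr2L:639340-639784 was not called, with 118.5, 94.2, 80.2 and 57.5. A cluster of 5 regions lay from 4.0 to 9.0 kb below the low-coordinate end, 3 of them nearest to lncRNA:CR45369. Of these, chr2L:634780-635463 had 257.9, 289.7 and 240.6 in EcR-RNAi wing, WT wing and WT leg and 70.3 in gland, and its folds over gland in the authors' deposited tables were 2.04 (SE 0.17, adjusted p 1.69e-29) for wing and 1.77 (SE 0.18, adjusted p 1.78e-21) for leg.

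The other ds regions called against gland ranged in wing from 1.10 to 1.85 on the log2 scale in the authors' deposited table. In leg they ranged from 1.07 to 1.83. Among these, chr2L:630770-631176, at the outer edge of the window, had 96.2, 128.8 and 124.7 in EcR-RNAi wing, WT wing and WT leg and 56.9 in gland, and its folds over gland in the authors' deposited tables were 1.18 (SE 0.25) for wing and 1.13 (SE 0.26) for leg. At the opposite edge, chr2L:723061-723970, nearest to lncRNA:CR46260, had 235.1, 319.5 and 347.1 in EcR-RNAi wing, WT wing and WT leg and 103.6 in gland, with 1.62 (SE 0.20) and 1.75 (SE 0.20) in the authors' deposited tables. Both edge regions were thus lower in gland than in either WT disc. The region at 671002, called in both, had 175.0, 243.4 and 142.0 in EcR-RNAi wing, WT wing and WT leg and 67.5 in gland. The regions at 684178 and 696046 were called in leg only, at 1.48 (SE 0.26, adjusted p 9.98e-08) and 1.12 (SE 0.17, adjusted p 7.58e-10) in the authors' deposited table, where wing had 0.95 and 0.59, both with an adjusted p under the threshold but short of the fold. Tested directly, wing and leg differed at 696046 and not past the threshold at 684178 (adjusted p 0.261 in the authors' deposited table). The regions at 633480, 635785, 651324 and 699219 were called in wing only. At 633480 the fold over gland was 1.55 (SE 0.19, adjusted p 9.33e-15) in wing and 0.05 (SE 0.21, adjusted p 0.873) in leg in the authors' deposited tables, and the direct test between wing and leg is given further on. One ds region ran the other way in leg, at 632617, with 189.7, 142.6, 72.3 and 105.7 in EcR-RNAi wing, WT wing, WT leg and gland. Its leg over gland fold was -0.55 (SE 0.24, adjusted p 0.04) in the authors' deposited table.

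The receptor gene ft had its largest count at its high-coordinate end, in chr2L:4221151-4222173. The level was 374.8 in EcR-RNAi wing, 499.5 in WT wing, 529.7 in WT leg and 111.9 in gland. Wing over gland was 2.16 (SE 0.15, adjusted p 1.75e-41) in the authors' deposited tables, the highest fold of the 59 regions in that comparison, and leg over gland was 2.24 (SE 0.16, adjusted p 5.99e-44). Inside the gene, 10.1 kb from that end, chr2L:4211079-4212292 had 351.9, 305.3 and 324.7 in EcR-RNAi wing, WT wing and WT leg and 120.3 in gland, with 1.34 (SE 0.15, adjusted p 2.52e-17) and 1.43 (SE 0.16, adjusted p 6.92e-19) for wing and leg over gland in the authors' deposited tables. Just past the high-coordinate end, chr2L:4222387-4223087 had 270.8, 218.8, 216.3 and 65.4, and was called in both discs at 1.74 and 1.73 (SE 0.18 each) in the authors' deposited tables. Next to it, chr2L:4223516-4223944, nearest to CG3702, was called in wing at 1.43 (SE 0.24, adjusted p 1.37e-08) and passed the p threshold in leg at 0.58 (SE 0.25, adjusted p 0.0363) in the authors' deposited tables. The opposite end of ft was different. At chr2L:4197979-4198395, nearest to Naprt, the levels were 81.2, 63.3, 61.0 and 87.4 in EcR-RNAi wing, WT wing, WT leg and gland, the fold of wing over gland was -0.47 (SE 0.27, adjusted p 0.121) in the authors' deposited table, and a gland peak was present. The 2 ends of one gene thus differed in whether the region was called against gland, though the difference between the ends was not tested.

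The kinase gene fj is short, at 3.6 kb, and 9 of its 11 regions lay outside the gene body. The region with the largest count, chr2R:18242149-18242761, lay 6.1 kb above the high-coordinate end, nearest to lncRNA:CR44420. It had 247.7 in EcR-RNAi wing, 278.6 in WT wing, 335.5 in WT leg and 81.4 in gland, and folds over gland of 1.78 (SE 0.18, adjusted p 5.77e-21) for wing and 2.04 (SE 0.18, adjusted p 3.45e-27) for leg in the authors' deposited tables. Its neighbour at 18244105 was called in both discs as well, at 1.43 (SE 0.22) and 1.94 (SE 0.22) in the authors' deposited tables. The low-coordinate end of fj, chr2R:18232488-18233499, had 245.6, 282.7 and 234.8 in EcR-RNAi wing, WT wing and WT leg and 137.3 in gland. It was called in wing at 1.04 (SE 0.18, adjusted p 1.11e-07), and leg at 0.78 (SE 0.19, adjusted p 0.000156) passed the p threshold but fell short of the fold in the authors' deposited tables. At the high-coordinate end, chr2R:18236373-18237140 had 213.9, 216.5 and 260.5 in EcR-RNAi wing, WT wing and WT leg and 78.3 in gland, with 1.47 (SE 0.18, adjusted p 2.4e-15) and 1.73 (SE 0.18, adjusted p 8.33e-21) in the authors' deposited tables. All 11 regions passed the p threshold in wing over gland, 9 of them at 2-fold, and 8 passed in leg, 6 of them at 2-fold. The called regions at 18222786, 18225591, 18226488, 18229592 and 18235041 had wing over gland folds from 1.07 to 1.16 in the authors' deposited table, close to the threshold.

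The gene of the upstream regulator Expanded had its largest mean normalized count at chr2L:441124-442977, a region of 1854 bp inside ex and 10.8 kb from the low-coordinate end. The level there was 784.5 in EcR-RNAi wing, 863.3 in WT wing, 970.9 in WT leg and 255.6 in gland. Wing over gland was 1.76 (SE 0.12, adjusted p 1.89e-45) and leg over gland 1.93 (SE 0.12, adjusted p 9.6e-54) in the authors' deposited tables. It closed a block of 4 adjacent regions between 7.7 and 10.8 kb into the gene, all called in both discs. Of these, chr2L:438348-439472 had 468.7, 553.9 and 626.7 in EcR-RNAi wing, WT wing and WT leg and 126.6 in gland, with 2.13 (SE 0.15, adjusted p 9.96e-45) and 2.31 (SE 0.15, adjusted p 8.43e-52) over gland in the authors' deposited tables. The regions between them, at 439534 and 440229, had wing over gland folds of 1.82 (SE 0.21) and 1.31 (SE 0.17) in the authors' deposited table. Before the low-coordinate end, chr2L:429086-430713 had 583.6, 564.8, 527.0 and 230.8, called at 1.29 (SE 0.12) and 1.19 (SE 0.13) for wing and leg over gland in the authors' deposited tables. Farther out, chr2L:427066-428494, nearest to BBS8, had 630.6, 716.2, 816.3 and 259.4, called at 1.47 (SE 0.13) and 1.65 (SE 0.13) in the authors' deposited tables. The region over the low-coordinate end of ex itself stood between these and was not called. At chr2L:430861-431940 the levels were 347.9 in EcR-RNAi wing, 374.7 in WT wing, 337.5 in WT leg and 298.1 in gland, with folds over gland of 0.33 (SE 0.15, adjusted p 0.0425) and 0.18 (SE 0.15, adjusted p 0.301) in the authors' deposited tables. All 4 peak lists held a peak there. The end of the gene was thus open in the gland list while the called regions on both sides of it had no gland peak.

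The remaining called region of the ex window, chr2L:422960-424269, nearest to BBS8, had 198.2, 346.4 and 425.3 in EcR-RNAi wing, WT wing and WT leg and 150.3 in gland. Its folds over gland in the authors' deposited tables were 1.21 (SE 0.21, adjusted p 5.74e-08) and 1.50 (SE 0.21, adjusted p 9.23e-12) for wing and leg. Regions of the window where gland stood higher lay nearest to other genes. At chr2L:426292-426801, nearest to BBS8, the levels were 102.0, 114.6, 96.6 and 173.5, with -0.60 (SE 0.19, adjusted p 0.00462) for wing over gland and -0.84 (SE 0.20, adjusted p 0.000138) for leg over gland in the authors' deposited tables. At 421093, nearest to CG11885, they were 189.3, 130.6, 126.0 and 180.2 in EcR-RNAi wing, WT wing, WT leg and gland, with -0.46 (SE 0.21, adjusted p 0.0401) and -0.52 (SE 0.21, adjusted p 0.0276) in the authors' deposited tables. Both held a gland peak, and neither difference reached 2-fold.

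Diap1, the Yorkie target, was the mixed case. A run of 3 regions, from 3.1 to 5.4 kb into the gene, was called in both discs. The one with the largest count, chr3L:16041046-16042063, had 468.4 in EcR-RNAi wing, 459.0 in WT wing, 483.8 in WT leg and 189.5 in gland, with 1.28 (SE 0.17, adjusted p 3.44e-12) and 1.35 (SE 0.18, adjusted p 2.44e-13) for wing and leg over gland in the authors' deposited tables. The next, chr3L:16042464-16043139, which also lies over asRNA:CR45889, had 374.6, 387.0, 446.7 and 137.6, with 1.49 (SE 0.18, adjusted p 6.85e-15) and 1.70 (SE 0.18, adjusted p 7.92e-19) in the authors' deposited tables. The last, chr3L:16043286-16044398, had 370.1, 337.6, 334.5 and 160.0, with 1.08 (SE 0.15, adjusted p 1.28e-11) and 1.06 (SE 0.15, adjusted p 5.48e-11) in the authors' deposited tables. None of these held a gland peak. About 3.0 kb on, gland was the higher tissue. At chr3L:16046667-16047105 the levels were 136.2, 105.3, 105.6 and 161.1 in EcR-RNAi wing, WT wing, WT leg and gland, with -0.61 (SE 0.24, adjusted p 0.017) and -0.61 (SE 0.24, adjusted p 0.0215) for wing and leg over gland in the authors' deposited tables. It held the gland peak with the highest enrichment of the 27, 8.61 in the authors' list. Another region higher in gland, chr3L:16051786-16053011, lay past the high-coordinate end nearest to Mbs, with 331.9, 261.4, 267.8 and 359.7 and folds of -0.46 (SE 0.15, adjusted p 0.00615) and -0.42 (SE 0.16, adjusted p 0.0141) in the authors' deposited tables. The high-coordinate end of Diap1, chr3L:16050956-16051358, was not called, with 124.6, 94.0, 114.5 and 76.1, and held a peak in all 4 lists. One region in Diap1, at 16039401, had 31.0 normalized counts on average and an SE between 0.35 and 0.37 in the authors' deposited tables, too imprecise to place.

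The second question was whether wing and leg, discs of different appendages, differ at these genes. At the 2-fold threshold 1 of the 58 regions with an adjusted p was called higher in wing, against 2.04% of all regions tested, and 0 were called higher in leg, against 2.21%. At an unadjusted p under 0.05 in the authors' DESeq2 fit, 10 regions were higher in wing and 7 higher in leg. The share of all regions at that unadjusted p was not counted, so the 10 and 7 have no value to be set against. Without the fold threshold 8 were higher in wing (6 at ds, 1 at ft, 1 at fj), against 5.05% of all regions, and 5 were higher in leg, all at ds, against 5.25%. No region at ex or Diap1 passed. The median log2 fold change over the 59 regions was 0.00, with -0.03 over all regions, and the folds ran from -0.86 to 1.50.

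At ds, 11 of 21 regions passed the adjusted p, 6 higher in wing and 5 higher in leg, and regions of both directions lay inside the gene body. Below the gene and up to 651324 all 4 passing regions were higher in wing, and from 668731 on 5 were higher in leg and 2 in wing. The called region was chr2L:633480-634305, 6.1 kb below the low-coordinate end and nearest to lncRNA:CR45369. Its level was 313.7 in EcR-RNAi wing, 243.9 in WT wing, 86.1 in WT leg and 83.2 in gland, so leg and gland lay together and both wing groups above them. Wing over leg was 1.50 (SE 0.20, adjusted p 4.17e-11) in the authors' deposited table. Its neighbour at 632617 had 142.6 in wing and 72.3 in leg, a log2 fold change of 0.98 (SE 0.24, adjusted p 0.00146) in the authors' deposited table, and the region at 635785 had 145.2 in wing and 76.5 in leg, 0.93 (SE 0.24, adjusted p 0.00359) in that table. The region at 634780, which lies between 633480 and 635785, had 289.7 in wing and 240.6 in leg, and its fold of 0.27 (SE 0.16, adjusted p 0.502) in the authors' deposited table did not pass. The cluster below the low-coordinate end therefore held regions that passed the adjusted p, higher in wing, on both sides of one that did not pass it.

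Inside ds, leg was higher at chr2L:668731-670485, with 518.8 in wing and 938.8 in leg and a fold of -0.86 (SE 0.13, adjusted p 4.34e-09) in the authors' deposited table. The next region, with its centre 1.8 kb away at chr2L:671002-671786, went the other way, with 243.4 in wing and 142.0 in leg and 0.78 (SE 0.20, adjusted p 0.00275) in that table of the authors. The next after that, at 675172, was again higher in leg, with 174.9 in wing and 279.6 in leg and -0.68 (SE 0.18, adjusted p 0.00346) in the authors' deposited table. Nearer the high-coordinate end a wing-higher region again lay between leg-higher ones. There the region at 699219 was higher in wing, with 267.4 in wing and 150.7 in leg and 0.83 (SE 0.21, adjusted p 0.0016) in the authors' deposited table. It lay between the regions at 697905, with 58.4 in wing and 102.1 in leg (-0.81, SE 0.25, adjusted p 0.0198 in the authors' deposited table), and 700516, with 464.0 in wing and 640.8 in leg (-0.47, SE 0.15, adjusted p 0.0258 in that table), whose centres are 1.5 and 1.8 kb from it. A further leg-higher region, at 696046, had -0.53 (SE 0.17, adjusted p 0.0257), and a further wing-higher one, at 651324, 0.80 (SE 0.20, adjusted p 0.00202) in the authors' deposited table. Neither end of the gene differed past the threshold, with folds of 0.23 (SE 0.23) at the low-coordinate end and -0.05 (SE 0.14) at the high-coordinate end in the authors' deposited table.

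**Figure D3:**
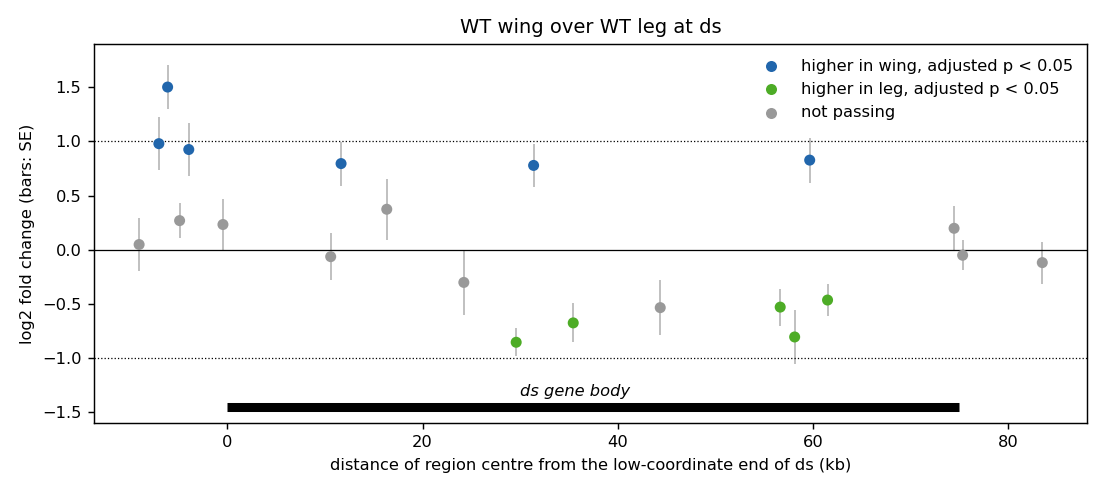
Log2 fold change of WT wing over WT leg (vertical axis, bars are the SE) against the distance of each region's centre from the low-coordinate end of ds in kb, from the authors' deposited table; the black bar is the gene body. Blue points are higher in wing and green points higher in leg at an adjusted p under 0.05, and inside the gene blue points lie between green ones near 31 kb (0.78) and 60 kb (0.83).

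At fj one region came close to the call. At chr2R:18226488-18227693, 5.7 kb below the low-coordinate end and nearest to lncRNA:CR45310, the level was 271.7 in wing and 136.0 in leg, with a fold of 1.00 (SE 0.21, adjusted p 0.000111) in the authors' deposited table, just under the threshold before rounding. Its gland level was 121.8, near that of leg. At ft, chr2L:4223516-4223944 had 141.6 in wing and 78.4 in leg, with 0.85 (SE 0.24, adjusted p 0.0082) in the authors' deposited table. The other 10 fj regions ranged from -0.52 to 0.72 and the other 5 ft regions from -0.24 to 0.05, and none passed. At ex the folds lay between -0.31 and 0.25, with 95% intervals reaching no farther than -0.70 and 0.67. At Diap1 they lay between -0.28 and 0.30, with intervals from -0.81 to 0.87. A difference between wing and leg of more than 2-fold is thus outside the interval of every region at ex and Diap1, while smaller ones are not.

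The third question was what EcR-RNAi changed in the wing. The authors' table gives WT wing over EcR-RNAi wing, so a positive value means lower in EcR-RNAi. At the 5 genes 1 of 59 regions was called lower in EcR-RNAi wing, against 1.24% of all regions tested, and 0 were called higher, against 0.789%. At an unadjusted p under 0.05 in the authors' DESeq2 fit, 9 were lower and 6 higher, and the share of all regions at that p was not counted. Without the fold threshold 3 were lower, where 10.4% of all regions were, and 0 were higher, where 5.38% were. Most of the open chromatin at these genes thus did not differ past the threshold, with a median log2 fold change of 0.05, against 0.08 over all regions.

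The called region lay inside fj, at chr2R:18235041-18235843, 0.9 kb from the high-coordinate end. Its level was 91.7 in EcR-RNAi wing, against 193.0 in WT wing, 186.4 in WT leg and 86.8 in gland. The EcR-RNAi level was thus close to that of gland, and the 2 WT discs were close to each other. WT wing over EcR-RNAi wing was 1.07 (SE 0.24, adjusted p 0.000607) in the authors' deposited table. The fold drops just below the threshold when it is taken relative to the median of all regions, and 0 regions are then called. The regions to either side did not share the difference, with 245.6 in EcR-RNAi wing and 282.7 in WT wing at 18232488, and 213.9 in EcR-RNAi wing and 216.5 in WT wing at 18236373. Their folds were 0.20 (SE 0.18, adjusted p 0.458) and 0.02 (SE 0.17, adjusted p 0.957) in the authors' deposited table.

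Of the regions that passed the p without the fold, chr2L:422960-424269 in the ex window had 198.2 in EcR-RNAi wing and 346.4 in WT wing, where the authors' deposited table gives 0.81 (SE 0.21, adjusted p 0.00358) for WT wing over EcR-RNAi wing. Its nearest gene is BBS8 and not ex. At the high-coordinate end of ft, chr2L:4221151-4222173 had 374.8 in EcR-RNAi wing and 499.5 in WT wing, with 0.41 (SE 0.14, adjusted p 0.0325) in that table of the authors. No region passed at ds or Diap1. The folds of WT wing over EcR-RNAi wing ran from -0.48 to 0.61 at ds and from -0.41 to 0.58 at Diap1, with 95% intervals within -0.90 and 1.22 at ds and within -0.92 and 1.29 at Diap1. At the wing-higher ds region 633480 the level was 313.7 in EcR-RNAi wing and 243.9 in WT wing, a fold of -0.36 (SE 0.18, adjusted p 0.151) in the authors' deposited table. In the peak lists 77.9% of the 113 WT wing peaks at the 5 genes were overlapped by an EcR-RNAi wing peak, where 50.6% of all WT wing peaks were. For WT leg peaks those shares were 74.3% and 74.1%, and for gland peaks 11.5% and 23.2%. The WT wing peaks at the 5 genes had a median enrichment of 3.81 and width of 320 bp, against 2.82 and 236 bp over that whole list. The EcR-RNAi wing list was also the shorter, with 18464 peaks against 29283 in WT wing. The part of peak strength and list length in the shares was not tested.

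**Figure D4:**
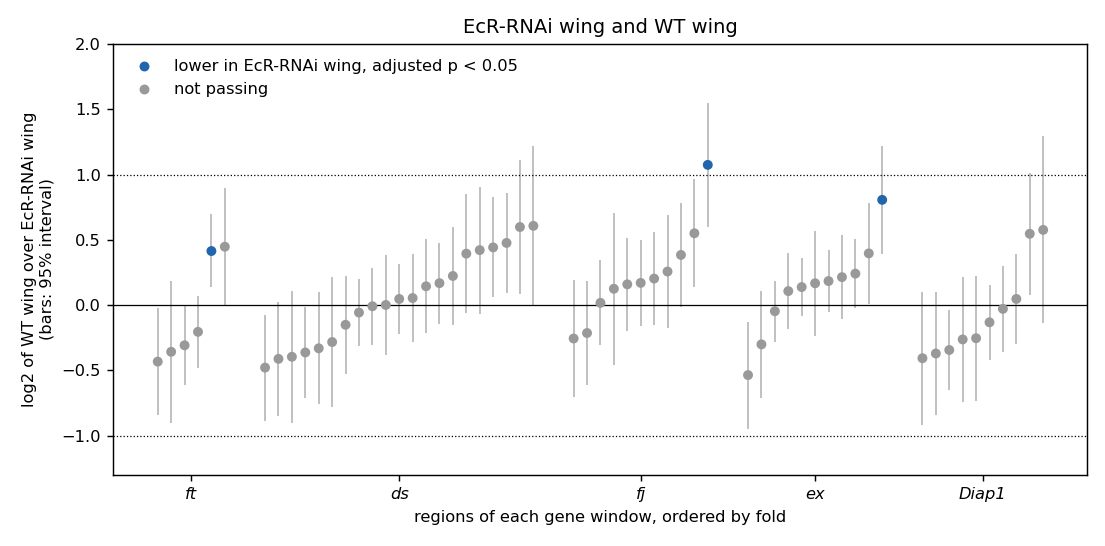
Log2 of WT wing over EcR-RNAi wing (vertical axis, bars are 95% intervals) for every region at each gene, ordered by fold, from the authors' deposited table; positive values are lower in EcR-RNAi wing. The 3 blue points pass an adjusted p of 0.05, and only the one at fj (1.07) lies above the 2-fold line.

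Summed over their regions, the implied levels gave one value per gene and group, as a description. The sum at ft was 1360.5 in EcR-RNAi wing, 1360.2 in WT wing, 1365 in WT leg and 549.9 in gland. At ds it was 4388, 4475, 4706 and 1854. At fj it was 1687, 1969, 1877 and 850.5, and at ex 3835, 4238, 4569 and 2009. At Diap1 it was 2084, 1933, 2032 and 1372. In each window the sums of the 3 disc groups lay closer to each other than any of them to gland.

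The other genes of the pathway were counted in the same windows. Around 27 of them lay 182 regions, of which 50 were called higher in wing than in gland and 22 lower, 27.5% and 12.1%, where 21.1% and 12.7% of all regions were. Differences between the groups that follow were not tested. At the 10 genes of the kinase core and its upstream regulators 1 of 59 regions was called higher in wing, at wts, which encodes the kinase that phosphorylates Yorkie (log2 fold change 2.05, SE 0.17, adjusted p 3.1e-30 in the authors' deposited table), and 13 were lower. Of those 13, 5 lay in the window of sav, the scaffold of the Hippo kinase, and 3 in that of kibra, an upstream activator. Counted by nearest gene, 1 of 29 core regions was higher in wing and 6 were lower. A gene end lay within 500 bp of 25.4% of the regions at the 5 genes and of 50.8% of the core regions. The median normalized count was 161.6 at the regions of the 5 genes, 107.3 at the core regions and 120.2 over all regions. Regions under the lower quartile of counts were called higher in gland more often, 38.0% against 4.22% of the rest. The part of gene-end placement and of low counts in the calls at the core was not tested. In the Fat branch 6 of 29 regions were called higher in wing and 4 lower, with 3 of the 6 at dachs, an unconventional myosin downstream of Fat, and 3 at Fbxl7, which encodes an F-box protein that acts with Fat. No region lay at Zyx.

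**Figure D5:**
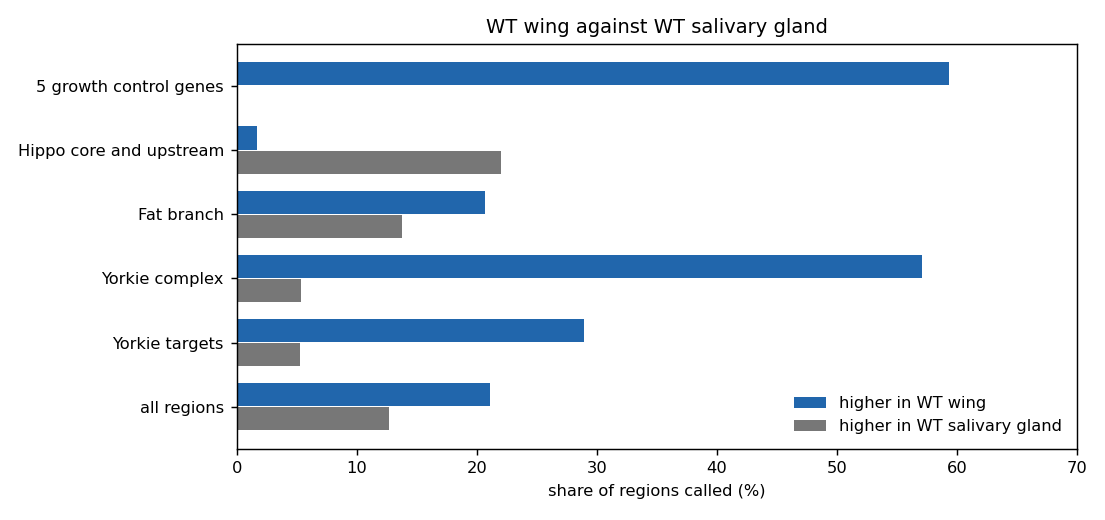
Share of regions (horizontal axis, percent) called higher in WT wing (blue) and higher in WT salivary gland (grey) at ft, ds, fj, ex and Diap1, at 4 groups of other pathway genes and over all regions. The 5 genes (59.3% and 0) and the Yorkie complex (57.1% and 5.36%) have the longest blue bars, and the kinase core the shortest (1.69%).

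At the 6 genes of the Yorkie complex 32 of 56 regions were called higher in wing than in gland and 3 lower. Most of the 32 lay at one gene, hth, which encodes a homeodomain partner of Yorkie, with 26 of its 28 regions called and a highest log2 fold change of 2.69 (SE 0.16, adjusted p 9.16e-63) in the authors' deposited table. All 3 regions at tsh, another partner, were called as well. In the window of yki 0 of 6 were called higher and 1 lower. At the 4 other Yorkie targets 11 of 38 were called higher and 2 lower, with 7 of 24 at E2f1 and 3 of 6 at CycE higher. In leg against gland, where 22.6% of all regions were higher and 13.3% lower, the core had 1 region higher and 17 lower, the Fat branch 5 and 6, the Yorkie complex 25 and 2, and the targets 10 and 4. Counting each region only for its nearest gene left 45 of 108 pathway regions higher in wing than in gland and 9 lower. In the Yorkie complex that count left 29 of 39 higher and 0 lower, so none of its 3 lower regions had the named gene nearest.

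In wing against leg, 4 of the 182 pathway regions were called higher in wing, 1 each at dachs (1.20, SE 0.28, adjusted p 0.000527), sd (1.20, SE 0.19, adjusted p 1.4e-08), Tgi (1.17, SE 0.17, adjusted p 6.21e-10) and hth (1.69, SE 0.28, adjusted p 3.79e-07) in the authors' deposited table. The product of sd is the DNA-binding partner of Yorkie, and that of Tgi competes with Yorkie for it. That is 2.33% of those tested, near the 2.04% of all regions. None was called higher in leg in the authors' DESeq2 table, where at an unadjusted p under 0.05 the pathway had 26 regions higher in wing and 5 higher in leg. No share of all regions was counted at that unadjusted p. In EcR-RNAi wing a region at sav and one in the window of yki were called lower, with WT wing over EcR-RNAi wing at 1.04 (SE 0.20, adjusted p 5.51e-05) and 1.19 (SE 0.37, adjusted p 0.0163) in the authors' deposited table. One in the window of dco, which encodes a casein kinase that phosphorylates Fat, was called higher at -1.11 (SE 0.27, adjusted p 0.00171) in that table of the authors. These are 1.14% of the tested pathway regions lower and 0.571% higher, near the 1.24% and 0.789% of all regions.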

How the data were processed

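FAIRE-seq was measured in 8 libraries, 2 in each of 4 groups. The submitters' processing notes name dm6 as the build and these tools, without order or settings: MACS2 2.1.2, bedtools 2.26, DESeq2, R 3.5.2, Picard 2.2.4, SAMtools 1.9 and Bowtie2 2.3.4.1. The authors deposited 4 DESeq2 tables over 13008 regions with, per the file headers, the mean normalized count (a signal scaled by size factors), the log2 fold change, its SE, the test statistic (a score) and raw and adjusted p-values. The authors deposited also 1 peak list per group, called on pooled libraries, with each peak's enrichment (a ratio to local background), score and −log10 q-value. Region coordinates are printed as deposited, and peaks from 1.

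From these, with Python 3.11.15 and pandas 2.3.3, regions and peaks were assigned by centre, calls were counted and levels per group were derived. The derivation of levels, and a call step with recomputed adjusted p, were tested on simulated data. The window rule was tried on a few made-up rows, and the counts themselves were not tested. Adjusted p are the authors', over the whole table; 681 (wing against leg) and 465 (EcR-RNAi) regions without one were never called. Library depth is unknown. Named are the 5 members, with every called region, the largest region and those over gene ends, and the other pathway genes with most calls. The genes and lists were chosen with earlier results of these data known. RefSeq gene rows gave starts and ends, so strand, exons, introns and sequence were not used here. Alternatives were the window, the nearest gene, the thresholds, centring and the overlap rule.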

Additional observations from a re-analysis of the deposited data

How the results depend on the processing

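Limits: the tables hold no value per library, so no comparison was refitted, no library was left out, and the depth behind a value is known only through its SE (median 0.20 over the 59 regions in wing against leg). No paired analysis was possible because the tables hold no per-library values for the replicate numbers to refer to.

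At an adjusted p under 0.01 every count at the 5 genes was the same as at 0.05. Regions higher in wing than in leg were 0 in gene bodies, 0 within 5 kb, 0 by nearest gene, 8 without the fold threshold and 3 with folds centred on all regions, against 1. Regions higher in leg than in wing were 5 without the fold threshold, against 0. Gene bodies alone held 17 regions higher in wing than in gland, against 35, and 16 higher in leg, against 29; the nearest gene rule left 22 in wing. Without the fold threshold 4 were lower in wing and 6 in leg than in gland, against 0, and with centred folds 1 was lower in leg. Against EcR-RNAi wing, 3 were higher in WT wing without the fold threshold and 0 with centred folds, against 1. Shares of all regions were not counted with centred folds or in gene bodies alone, nor without the fold threshold for the discs against gland.

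At the 182 regions of the other pathway genes, dropping the fold threshold gave 18 higher in wing and 4 in leg between the discs. Of all regions tested, 5.05% and 5.25% were. Against gland it gave 85 higher in wing and 54 in gland, and 82 higher in leg and 53 in gland, with no share of all regions counted. Against EcR-RNAi wing, 15 were higher in WT wing and 9 in EcR-RNAi wing, where 10.4% and 5.38% of all regions were. By nearest gene, 9 and 11 of 108 regions were called higher in gland than in wing and leg, where 12.7% and 13.3% of all regions were. In that count 0 were higher in EcR-RNAi wing and 1 in WT wing, where 0.789% and 1.24% of all regions were.

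With peaks of a −log10 q of at least 10, EcR-RNAi wing, WT wing, WT leg and gland kept 58, 66, 55 and 5 peaks, and gene bodies alone held 48, 52, 51 and 9. Under a reciprocal overlap of 50%, 62.8% of the WT wing peaks at the 5 genes were shared with EcR-RNAi wing. The whole lists were not counted at that q, in gene bodies or under that overlap. The peak numbers of these settings thus have no value to be set against. The causes of these shifts were not tested, beyond the fewer regions that a narrower window holds.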
